A study of Mus musculus with 9 samples.

Results

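The 10 imprinted genes of fetal growth were followed in mouse dorsal root ganglia (DRG): H19, Igf2, Meg3, Dlk1, Peg3, Cdkn1c, Snrpn, Grb10, Mest and Plagl1. They were chosen by name from a table of 55247 genes, and all 10 passed the filter on low counts (100 or more in any of 9 libraries), as did 13200 genes in all, which were tested. RNA had been sequenced from DRGs of E18.5 embryos of 3 genotypes, 3 libraries each, to learn which transcripts depend on Meis2, a transcription factor of sensory neurons. WT embryos are labelled as wild type, with no modified allele named. Isl1Cre/+ embryos had Cre recombinase knocked into 1 Isl1 allele. Isl1Cre/+::Meis2LoxP/LoxP embryos (mutant) had the same Cre together with LoxP sites around Meis2 exon 8 on both alleles. Cre is therefore present in the Isl1Cre/+ controls as well as in the mutant, and recombination is limited to cells that have expressed Isl1, in the ganglion mainly the neurons. The labels do not say whether the libraries of a genotype came from separate embryos or litters, so p-values measure only the spread between these libraries. The study's reporting checklist calls its replicates biological, without details of these libraries.

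Libraries held 23854607 to 29103444 counts. The deleted gene followed the labels: Meis2 had 2919, 2902 and 2746 counts in WT, 2806, 2857 and 2537 in Isl1Cre/+, with 1084, 1073 and 1004 in the mutant, counted over the whole gene and not exon 8 alone. All 12 neuron markers passed the filter on low counts, Nefl being the most abundant, and none of 6 spinal cord markers did. Mutant library 2 and WT library 1 were the least like the others across genes, with median rank correlations of 0.979 and 0.981 against 0.991 to 0.995 for the other 7, and several group differences are given below also without them. Skeletal muscle markers ranged over libraries from 60.9 to 2006 counts per 1000000 of the scaled library (cpm) in sum, and meningeal markers from 61.6 to 288, each highest in mutant library 2.

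Imprinted genes are transcribed mainly from the copy of a single parent, because DNA methylation set in the germ line marks the other copy. Many act on fetal growth, and genes expressed from the paternal copy often promote growth where those from the maternal copy restrain it. Of the members, Igf2, Dlk1, Peg3, Snrpn, Mest and Plagl1 are known to be paternally expressed and H19, Meg3 and Cdkn1c maternally expressed, while Grb10 is maternally expressed in most tissues and paternally in neurons. Counts from these libraries do not tell the parental copies apart.

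The members lie on 5 chromosomes (GRCm38). On chromosome 7, H19 (chr7:142575529-142578143) is 72622 bases from Igf2 (chr7:142650766-142666816), and Cdkn1c (chr7:143458339-143461050) lies 791522 bases beyond Igf2. Peg3 (chr7:6703892-6730431) and Snrpn (chr7:59982495-60140219) are elsewhere on chromosome 7. On chromosome 12, Dlk1 (chr12:109452823-109463336) is 77664 bases from Meg3 (chr12:109541001-109571726). Mest is at chr6:30723547-30748465, Plagl1 at chr10:13060504-13131694 and Grb10 at chr11:11930508-12038683. H19 and Meg3 are annotated as long noncoding RNAs and the other 8 as protein coding.

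H19, the most abundant member per length of transcript, is also the precursor of a microRNA that lies in its exon, and its mature sequences are shown from RefSeq (GRCm38.p6) because the H19 transcript carries them. Capitals mark the seed, bases 2 to 8. The libraries were made from poly(A) RNA and do not measure mature microRNAs.
miR-675-5p, chr7:142577112-142577133: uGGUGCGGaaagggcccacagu
miR-675-3p, chr7:142577078-142577099: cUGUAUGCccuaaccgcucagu

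RefSeq promoters, 250 bases before to 50 after a start site, were found for 8 of the 10 members, 18 windows in all, with no entry for H19 and Cdkn1c. Shown are windows of Igf2 and Grb10, which moved together over the libraries, and of Dlk1, which joined them by rank only. A window of Meg3 is also shown, as the ratio of Meg3 to Dlk1 departed in 2 libraries (results below). Of 4 windows of Igf2, 2 of Grb10 and 2 of Meg3, the window with a match to the motif below was chosen. Capitals mark the hexamer TGCCGC, the motif of ZFP57, a zinc finger protein known to bind methylated imprinting control regions, or its reverse complement GCGGCA.
Igf2, chr7:142661222-142661521, reverse strand: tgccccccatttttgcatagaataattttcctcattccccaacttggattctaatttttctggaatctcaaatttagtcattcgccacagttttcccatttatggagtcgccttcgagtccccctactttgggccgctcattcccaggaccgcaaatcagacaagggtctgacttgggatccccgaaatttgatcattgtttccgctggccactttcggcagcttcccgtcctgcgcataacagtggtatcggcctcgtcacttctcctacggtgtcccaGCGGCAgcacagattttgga
Grb10, chr11:12037371-12037670, reverse strand: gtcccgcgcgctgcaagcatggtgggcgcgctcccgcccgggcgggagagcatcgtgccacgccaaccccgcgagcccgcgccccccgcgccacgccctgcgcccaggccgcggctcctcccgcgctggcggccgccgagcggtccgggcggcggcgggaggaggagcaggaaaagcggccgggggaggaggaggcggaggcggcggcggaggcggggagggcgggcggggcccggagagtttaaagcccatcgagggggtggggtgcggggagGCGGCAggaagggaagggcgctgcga
Meg3, chr12:109540746-109541045, forward strand: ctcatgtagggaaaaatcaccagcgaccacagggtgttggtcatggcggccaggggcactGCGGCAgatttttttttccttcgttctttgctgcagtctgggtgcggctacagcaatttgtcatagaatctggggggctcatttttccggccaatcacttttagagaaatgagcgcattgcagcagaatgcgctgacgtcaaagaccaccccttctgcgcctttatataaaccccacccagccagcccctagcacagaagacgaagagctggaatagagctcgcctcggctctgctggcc
Dlk1, chr12:109452573-109452872, forward strand: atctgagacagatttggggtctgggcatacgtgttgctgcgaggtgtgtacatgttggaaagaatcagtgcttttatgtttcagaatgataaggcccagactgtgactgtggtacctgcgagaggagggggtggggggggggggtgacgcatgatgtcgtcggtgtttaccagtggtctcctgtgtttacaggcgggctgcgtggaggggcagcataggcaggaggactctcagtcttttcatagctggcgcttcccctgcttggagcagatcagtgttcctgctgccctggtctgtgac
TGCCGC, searched on both strands, was in 7 of the 18 windows, against 11.6% of all 32851 promoters of the table. By this choice the windows shown of Igf2, Grb10 and Meg3 hold 1 match each, the other windows of these genes hold none, and the single window of Dlk1 holds none. TGACAG, the core motif of MEIS factors, was in 3 of the 18 windows, against 19.2% of all promoters, among them a window of Igf2 that is not shown. CpG pairs numbered 14 in the Igf2 window, 45 in that of Grb10, 13 in that of Meg3 and 9 in that of Dlk1, with a median of 7 over all promoters. Of the 7 windows with TGCCGC, 2 are windows of Mest that start 3 bases apart and hold the same matches, so the count includes 1 sequence again. A match describes the sequence and does not show binding.

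Level differed widely among the members. On the scale of cpm per kilobase of exon, means over 9 libraries were 774 for H19, 202 for Snrpn, 92.8 for Mest, 74.8 for Cdkn1c, 42.7 for Peg3, 38.9 for Meg3, 30.4 for Plagl1, 23.7 for Dlk1, 23.6 for Grb10 and 12.1 for Igf2. H19 stood apart at 467 to 1420 over the libraries, and Snrpn followed at 190.0 to 211. Dlk1, at 8.78 to 41.0, and Grb10, at 17.3 to 35.6, overlapped over the libraries. For Igf2 the level is uncertain, since 3596 of its 5723 exonic bases are shared on the same strand with the annotated gene Gm49394, and counters commonly leave out reads that fall on more than 1 gene. Over its 2127 unshared bases alone Igf2 would be at 32.6. Snrpn shares 589 bases in the same way with Snurf and Gm38393, and Snurf itself, which lies wholly within Snrpn, was listed at 0 counts in each library. Genes on the opposite strand overlap 625 exonic bases of Cdkn1c and 912 of Mest. Whether counting used the strand is not stated, so these levels are uncertain too. Together the members took 0.380% to 0.675% of all counts of a library, lowest in Isl1Cre/+ library 3 and highest in mutant library 2.

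**Figure D1:**
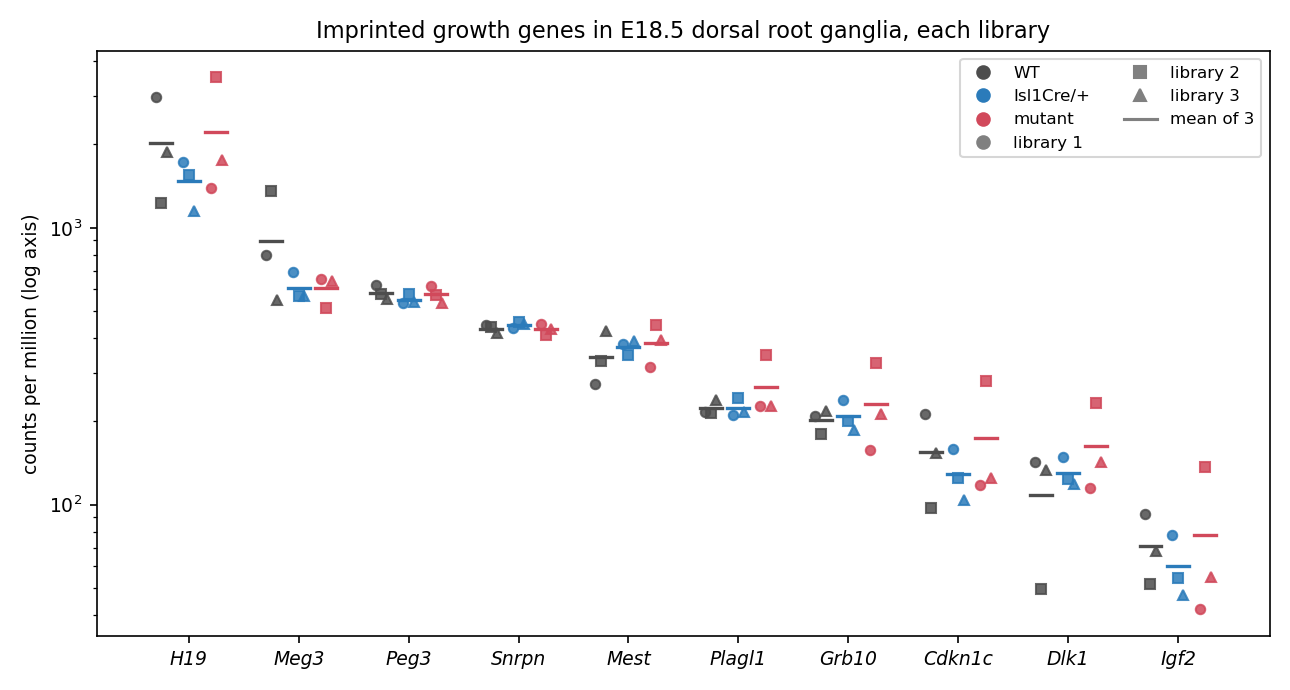
Level in cpm (log axis) of the 10 genes in each library. Colours are genotypes, shapes are library numbers, and bars are means of 3 libraries. Mutant library 2 is the highest point for 7 genes, WT library 2 is highest for Meg3 and lowest for Dlk1, and Peg3 and Snrpn hardly spread.

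In the pair of the insulin-like growth factor locus, both genes spread over libraries within each genotype. H19, a noncoding RNA that restrains growth, was at 2973, 1229 and 1879 cpm in WT, 1727, 1545 and 1148 in Isl1Cre/+, with 1396, 3494 and 1756 in the mutant. The libraries of the 3 genotypes overlap, with WT library 1 and mutant library 2 far above the others. Igf2, the main growth factor of the fetus, was at 92.4, 51.5 and 68.2 cpm in WT, 77.7, 54.5 and 47.4 in Isl1Cre/+, with 42.0, 136 and 54.9 in the mutant. The same libraries were at the top, and the mutant held both its highest and its lowest value. The log2 ratio of H19 to Igf2 counts varied much less than either gene, at 4.79 ± 0.22 in WT, 4.63 ± 0.18 in Isl1Cre/+ and 4.91 ± 0.20 in the mutant (SD, n = 3), while the SD of log2 level within genotypes was 0.57 for H19 and 0.60 for Igf2. With 3 libraries against 3, a two-sided exact test cannot give a p under 0.1, and the ratios were not tested.

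Cdkn1c, which encodes the cell cycle inhibitor p57, was at 213, 97.0 and 154 cpm in WT, 159, 124 and 104 in Isl1Cre/+, with 118, 279.8 and 124 in the mutant. Its order of libraries was close to that of H19, and the genotypes overlap. Grb10, an adaptor that dampens insulin and IGF receptor signalling, was at 208, 180.3 and 219 cpm in WT, 239, 200.7 and 187 in Isl1Cre/+, with 157, 324 and 213 in the mutant. Its extremes were both mutant libraries.

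In the chromosome 12 pair, WT library 2 stood out for both genes, in opposite directions. Meg3, a noncoding RNA known for growth restraint, was at 796, 1354 and 548 cpm in WT, 691, 567 and 565 in Isl1Cre/+, with 653, 515 and 644 in the mutant. Without WT library 2, its range over the other 8 libraries was 515 to 796. Dlk1, a membrane protein of the Notch ligand type that holds back differentiation of precursor cells, was at 143, 49.7 and 134 cpm in WT, 149, 124 and 118 in Isl1Cre/+, with 115, 232 and 142 in the mutant. It was lowest in WT library 2 and highest in mutant library 2. The log2 ratio of Meg3 to Dlk1 counts was 4.77 in WT library 2, 1.15 in mutant library 2, and 2.04 to 2.51 in the other 7.

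Peg3, a zinc finger protein, and Snrpn, a spliceosomal protein abundant in neurons, were the steadiest members. Peg3 was at 620.4, 577 and 552 cpm in WT, 535, 578 and 538 in Isl1Cre/+, with 618, 574 and 534 in the mutant. Snrpn was at 444, 437 and 417 cpm in WT, 434, 455 and 448 in Isl1Cre/+, with 448, 410.2 and 431 in the mutant. From lowest to highest library Peg3 changed 1.16-fold and Snrpn 1.11-fold, against 4.67-fold for Dlk1, 3.25-fold for Igf2 and 3.04-fold for H19. Mest, an enzyme of the hydrolase fold, was at 272, 331 and 422 cpm in WT, 379, 347 and 392 in Isl1Cre/+, with 313, 445 and 393 in the mutant. Plagl1, a zinc finger transcription factor, was at 216, 214 and 238 cpm in WT, 212, 243 and 216 in Isl1Cre/+, with 226, 348 and 227 in the mutant. For Plagl1, 8 libraries lay within 212 to 243 cpm and mutant library 2 was above them.

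The biological coefficient of variation that edgeR fitted over the 9 libraries, which measures spread between libraries beyond counting error, placed the members at both ends of the tested genes. Igf2 had 0.346, H19 0.324, Dlk1 0.314, Cdkn1c 0.312 and Meg3 0.237, values that 94.1% to 97.4% of tested genes did not exceed. Snrpn had 0.0776 and Peg3 0.0879, which only 5.39% and 17.5% of tested genes were at or below, and the median of tested genes was 0.115. Grb10, Mest and Plagl1 lay between, at 0.196, 0.152 and 0.144. Within genotypes, the variance of a member between libraries was 14.2 to 9027 times its counting error, a ratio that also grows with the count.

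**Figure D2:**
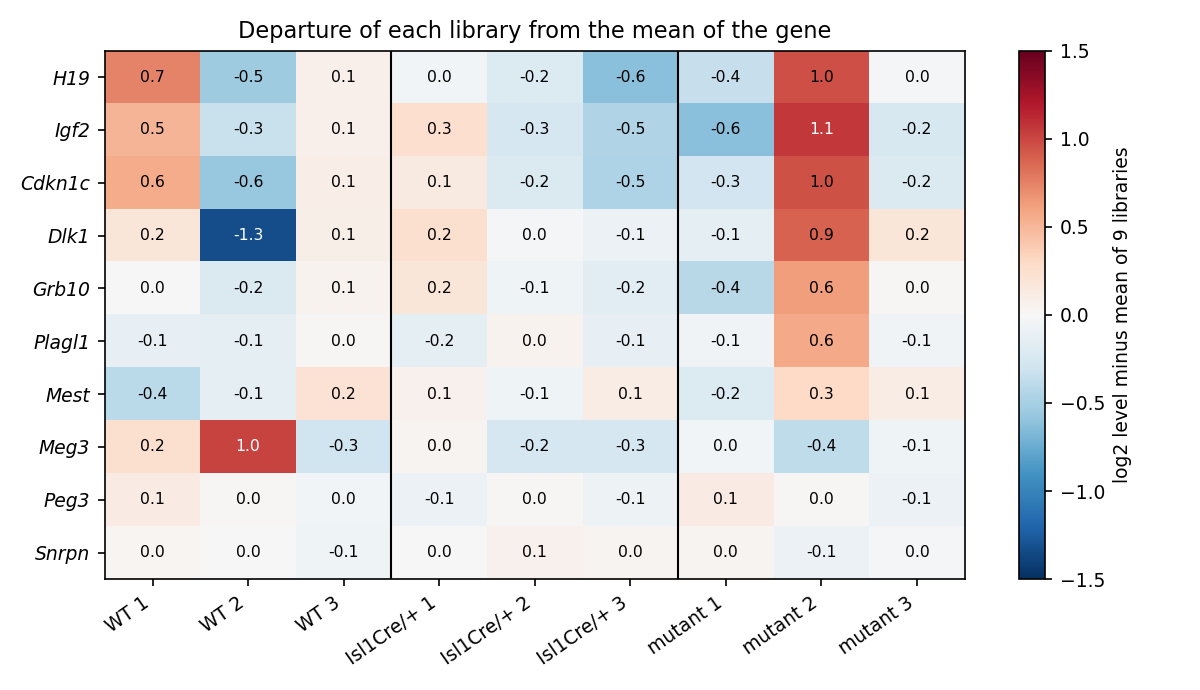
Log2 level of each gene in each library minus the mean of that gene over 9 libraries, with genotypes divided by black lines. H19, Igf2, Cdkn1c, Dlk1 and Grb10 share high values in mutant library 2, and Meg3 and Dlk1 have opposite colours in WT library 2.

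No member passed the test between mutant and WT. The criterion of the study asks for 1.2-fold or more and an unadjusted p under 0.05, here taken from edgeR's quasi-likelihood test, two-sided, of each pair of genotypes. By this criterion 0 of 10 members were called, where 0.318% of all tested genes were, and none had an adjusted p under 0.05, where 0.00758% of genes did. None had an unadjusted p under 0.05 either, against 49 of all 13200 genes. No member's mutant libraries lay wholly outside its WT libraries, which was so for 2.76% of tested genes. The largest differences were those of Dlk1, whose log2 fold change was 0.59 ± 0.41 (SE), and Meg3, at -0.57 ± 0.30, each with an edgeR adjusted p of 0.9999. Without WT library 2 they were 0.24 for Dlk1 and -0.15 for Meg3, and without mutant library 2 they were 0.27 and -0.45. For Plagl1 the log2 difference was 0.26 ± 0.18 and for H19 0.13 ± 0.41, and without mutant library 2 they were 0.04 and -0.34. Igf2, at 0.14 ± 0.43, and Cdkn1c, at 0.17 ± 0.39, moved the most without that library, to -0.52 and -0.33. Without WT library 1, H19 was at 0.51. Peg3, at -0.02 ± 0.10, and Snrpn, at -0.01 ± 0.09, had the narrowest errors. Over the 10 members the median log2 fold change was 0.15, with 7 higher in value and 3 lower, beside -0.01 over all tested genes. Without mutant library 2 the median was -0.05, with 5 higher and 5 lower, and without WT library 2 it was -0.02, with 4 higher and 6 lower. Leaving out WT library 1 and mutant library 2 together, the difference of Igf2 went from 0.14 to -0.30, that of Cdkn1c from 0.17 to -0.05 and that of Plagl1 to 0.01, while Dlk1 was at 0.50 and Meg3 at -0.55.

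Between mutant and Isl1Cre/+, which share the Cre allele, again 0 of 10 members met the criterion, beside 1.67% of tested genes, and 0 had an adjusted p under 0.05, beside 0.00758%. No member's libraries were separated, which held for 7.65% of tested genes. H19 had the largest log2 fold change, 0.59 ± 0.33 (SE; edgeR adjusted p = 0.9997), followed by Cdkn1c at 0.43 ± 0.34, Igf2 at 0.38 ± 0.42 and Dlk1 at 0.32 ± 0.24. These values rested on mutant library 2, and without it the difference was 0.10 for H19, -0.08 for Cdkn1c, -0.30 for Igf2 and -0.01 for Dlk1. Erythroid markers, led by Hbb-bs, were separated between these genotypes, at 1210 to 3966 cpm in the mutant and 343 to 981 in Isl1Cre/+, and their part was not tested. Over the 9 libraries H19 gave r = 0.77 and rho = 0.83 with them (exact permutation p = 0.0152 and 0.00827, r adjusted over 120 relations 0.0877), and r = 0.48 without Isl1Cre/+ library 3 and mutant library 2. Skeletal muscle markers overlapped, at 122.9 to 2006 cpm in the mutant and 60.9 to 145 in Isl1Cre/+. Relations of H19 with muscle, meningeal and macrophage markers are given below, and their part was not tested. Without mutant library 1, H19 (0.83) and Dlk1 (0.52) met the criterion, among 407 of 13200 tested genes. Meg3, at -0.01 ± 0.12, Mest, at 0.04 ± 0.13, Snrpn, at -0.05 ± 0.06, and Peg3, at 0.06 ± 0.08, were close to 0. Of the 10 log2 differences 8 were above 0, with a median of 0.20 where that of all tested genes was 3e-04. Without mutant library 2, 4 were above 0 and the median was -0.01.

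Isl1Cre/+ and WT differ by the labels in the Cre allele alone. Their comparison also gave 0 of 10 members by the criterion, beside 1.4% of tested genes. None had an adjusted p under 0.05, beside 0% of tested genes. Separated libraries were found for none, beside 5.66% of tested genes. The Isl1 gene itself, which carries the inserted Cre, fell by 0.48 on the log2 scale and met the criterion, but not after adjustment (edgeR adjusted p = 0.9999). Meg3 was at -0.56 ± 0.30 (SE) and H19 at -0.44 ± 0.30, each with an edgeR adjusted p of 0.9999. Marker sums moved in this comparison too, and their part was not tested. Endothelial markers, led by Cdh5, were at 339 to 455 cpm in Isl1Cre/+ and 302 to 318 in WT, and spinal cord markers, none of them past the filter, at 0.0706 to 1.09 and 1.53 to 5.61, each separated. Erythroid markers (343 to 981 cpm against 896 to 2135) and muscle markers (60.9 to 145 against 109 to 844) overlapped and were lower in mean in Isl1Cre/+. Without WT library 2, Meg3 was at -0.12 and Dlk1 at -0.06, while H19 (-0.70) and Cdkn1c (-0.49) met the criterion. In that refit 276 of 13200 tested genes met it. Without WT library 1, in contrast, H19 was at -0.09, Cdkn1c at 0.03 and Igf2 at -0.01, and Dlk1 was at 0.50. Without WT library 3, Meg3 (-0.81) and Mest (0.32) met the criterion, among 233 of 13200 tested genes. Dlk1 was at 0.28 ± 0.35, Cdkn1c at -0.24 ± 0.27, Igf2 at -0.23 ± 0.24 and Mest at 0.13 ± 0.16. The 3 comparisons share libraries in pairs, so their values for a gene are not independent.

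**Figure D3:**
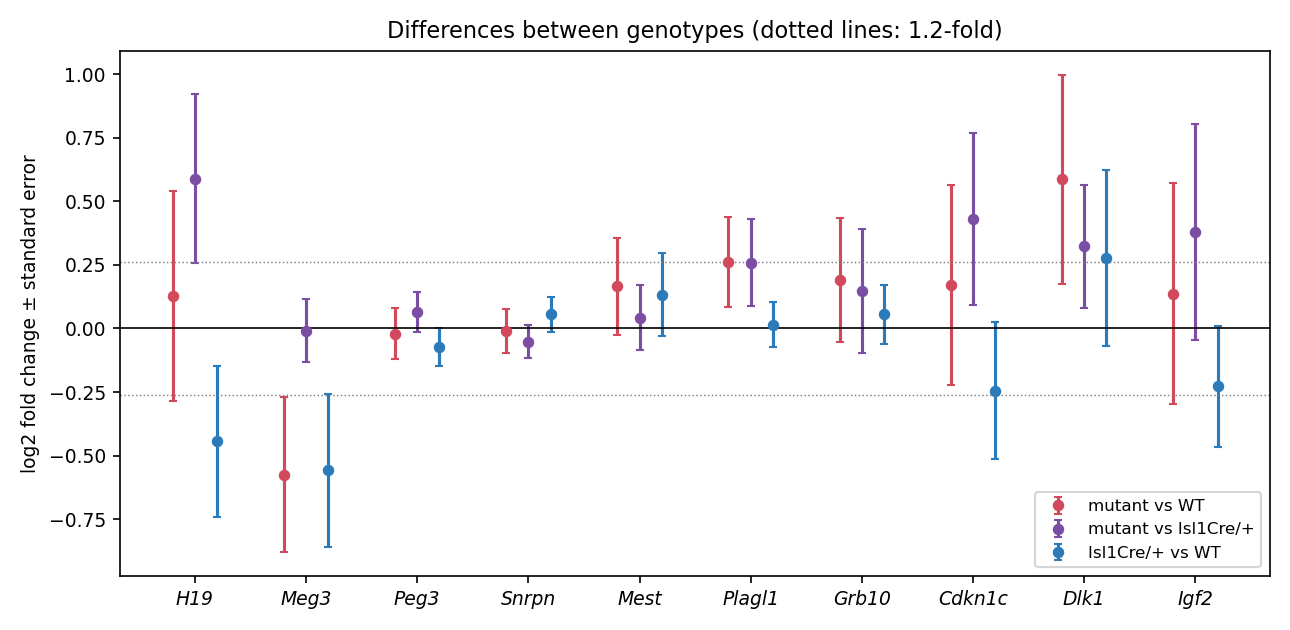
Log2 fold change with its standard error from edgeR for each gene in the 3 comparisons, with dotted lines at 1.2-fold. No gene met the criterion in any comparison, and Peg3 and Snrpn have the shortest error bars.

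Over the libraries the levels of several members were correlated. Of 45 pairs, 4 had an adjusted p under 0.05 for Pearson's r of log2 level over 9 libraries, from an exact permutation test over all 362880 pairings with Benjamini-Hochberg adjustment over the pairs. The share of pairs of other tested genes that reach such values was not computed. Genes outside the members were as close or closer, such as Krt80 with H19 at r = 0.99. H19 and Cdkn1c gave r = 0.97 and rho = 0.93 (exact permutation p = 6.34e-05 and 0.000750, adjusted 0.00285 and 0.0112). Igf2 and Cdkn1c gave r = 0.96 and rho = 0.93 (exact permutation p = 0.000218 and 0.000750, adjusted 0.00490 and 0.0112). H19 and Igf2 gave r = 0.92 and rho = 0.90 (exact permutation p = 0.000441 and 0.00203, adjusted 0.00661 and 0.0152). Without WT library 1 and mutant library 2, the 2 farthest from the median, r was 0.89 for H19 with Cdkn1c, 0.81 for Igf2 with Cdkn1c and 0.71 for H19 with Igf2 (exact permutation p = 0.0125, 0.0272 and 0.0732 over 7 libraries), so the last of these rests in part on those libraries. Igf2 and Grb10, on different chromosomes, gave r = 0.91 and rho = 0.88 (exact permutation p = 0.000929 and 0.00308, adjusted 0.0104 and 0.0198), and r was 0.93 without those 2.

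Dlk1 joined the same genes by rank. Its rho was 0.95 with Cdkn1c, 0.92 with Igf2 and 0.92 with Grb10 (exact permutation p = 0.000353, 0.00131 and 0.00131, adjusted 0.0112, 0.0118 and 0.0118), although r was 0.77, 0.65 and 0.71 (exact permutation p = 0.0131, 0.0727 and 0.0571, adjusted 0.0843, 0.168 and 0.143). Without the 2 libraries farthest from the median of the gene on the x axis, r of Dlk1 was 0.71 with Cdkn1c and 0.88 with Grb10 (without WT library 2 and mutant library 2) and 0.36 with Igf2 (without WT library 1 and mutant library 2). Dlk1 and Meg3 gave r = -0.83 and rho = -0.30 (exact permutation p = 0.0317 and 0.437, adjusted 0.130 and 0.561), and r = 0.54 without WT library 2 and mutant library 2, so the negative value rests on these libraries. The other pairs with an adjusted p under 0.05 by rank were Cdkn1c with Grb10 (rho = 0.85), Dlk1 with H19 (rho = 0.83) and, as the only negative pair, Meg3 with Mest (rho = -0.82; exact permutation p = 0.00607, 0.00827 and 0.0108, adjusted 0.0342, 0.0413 and 0.0485). Their r was 0.82, 0.71 and -0.55 (exact permutation p = 0.00617, 0.0238 and 0.124, adjusted 0.0555, 0.107 and 0.224), and 0.74, 0.63 and -0.74 without the 2 farthest libraries. Peg3 and Snrpn had no pair with an adjusted p under 0.05 by either measure.

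Levels of cell type markers moved with some of these genes, which matters in bulk ganglia, where a smaller share of a cell type cannot be told apart from less RNA per cell. Of 30 relations of the members with markers of mesenchyme, neurons, and Schwann and satellite glia, 1 had an adjusted p under 0.05 for r, that of Grb10 with mesenchyme. The share of other tested genes so related to a marker list was not computed. Grb10 followed the summed level of 11 mesenchyme markers, led by Col1a1, with r = 0.92 and rho = 1.0 (exact permutation p = 1.93e-05 and 5.51e-06, the latter the smallest that the pairings can give, adjusted 0.000579 and 0.000165). The order of the 9 libraries was thus identical for both, from mutant library 1, at 157 and 3100 cpm, to mutant library 2, at 324 and 5758 cpm. Without these 2 libraries r was 0.98 (exact permutation p = 0.000198), and with each genotype centred on its own mean r was 0.93. By rank, Dlk1 (rho = 0.92), Igf2 (rho = 0.88) and Cdkn1c (rho = 0.85) also had adjusted p under 0.05 with mesenchyme over the 30 relations (exact permutation p = 0.00131, 0.00308 and 0.00607, adjusted 0.0197, 0.0308 and 0.0456), with r of 0.71, 0.82 and 0.76 (adjusted 0.113, 0.0560 and 0.113). The mesenchyme level itself was 3476 to 4924 cpm in WT, 3638 to 5319 in Isl1Cre/+ and 3100 to 5758 in the mutant, all 11 markers being above 0 in each library.

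Neuron markers showed no such relation with a member past adjustment. The nearest was Mest, with r = -0.82 and rho = -0.68 (exact permutation p = 0.00560 and 0.0503, adjusted 0.0560 and 0.189), and r was -0.33 without WT library 1 and mutant library 1, on which it rests. Neuron markers summed to 18710 to 29690 cpm in WT, 20240 to 21090 in Isl1Cre/+ and 18050 to 23200 in the mutant. With the markers of Schwann and satellite glia, at 1113 to 1349 cpm over the libraries, the largest r of a member was 0.49, for Dlk1, with rho = 0.45 (exact permutation p = 0.177 and 0.230, adjusted 0.409 and 0.530).

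When 9 more marker lists were added after seeing the data, 11 of all 120 relations had an adjusted p under 0.05 for r. For these lists too, the share over other tested genes was not computed. Igf2 was related to meningeal markers, led by Aldh1a2, with r = 0.96 and rho = 0.85 (exact permutation p = 0.000185 and 0.00607, adjusted 0.00738 and 0.0607), and r was 0.84 without WT library 1 and mutant library 2. Cdkn1c gave r = 0.92 and rho = 0.75 with the same list (exact permutation p = 0.000763 and 0.0255, adjusted 0.0183 and 0.133), and H19 gave r = 0.90 and rho = 0.70 (exact permutation p = 0.00127 and 0.0432, adjusted 0.0191 and 0.173). Without those 2 libraries r was 0.66 for Cdkn1c and 0.58 for H19 (exact permutation p = 0.0992 and 0.175), so these rest on them. The 6 macrophage markers, led by Csf1r, summed to only 33.0 to 66.6 cpm. With them r was 0.93 for Igf2, 0.91 for Grb10, 0.90 for H19 and 0.87 for Cdkn1c (exact permutation p = 0.000168, 0.000992, 0.000460 and 0.00201, adjusted 0.00738, 0.0191, 0.0138 and 0.0268), and rho was 0.93, 0.80, 0.87 and 0.83 (adjusted 0.0300, 0.0922, 0.0601 and 0.0709). Without mutant libraries 1 and 2, r was 0.80, 0.69, 0.86 and 0.78 in the same order.

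H19 was also related to muscle markers, led by Acta1, with r = 0.85 and rho = 0.90 (exact permutation p = 0.00290 and 0.00203, adjusted 0.0316 and 0.0487), and r was 0.80 without WT library 3 and mutant library 2. Grb10 was related to genes of dividing cells, led by Mki67, with r = 0.86 and rho = 0.97 (exact permutation p = 0.00124 and 0.000165, adjusted 0.0191 and 0.00992), and r was 0.79 without Isl1Cre/+ library 3 and mutant library 1. Peg3 was negatively related to pericyte markers, led by Rgs5, with r = -0.88 and rho = -0.80 (exact permutation p = 0.00266 and 0.0138, adjusted 0.0316 and 0.0922), and r was -0.80 without WT library 1 and Isl1Cre/+ library 1. Mesenchyme, meningeal, macrophage, muscle and erythroid markers were each highest in mutant library 2, so these relations are not independent of each other. Their part in the levels of the members was not tested.

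**Figure D4:**
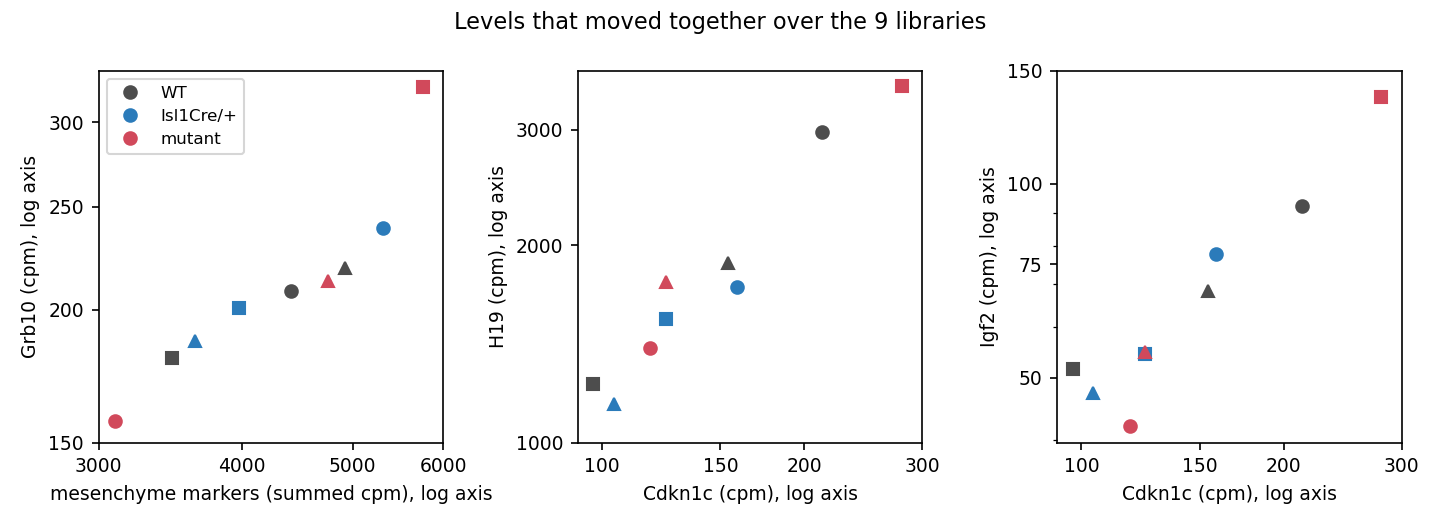
Grb10 against the summed level of mesenchyme markers, and H19 and Igf2 against Cdkn1c, in cpm on log axes, each point being 1 library. Grb10 and the mesenchyme markers order the 9 libraries identically, and mutant library 2 is the highest point in each panel.

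The genes whose log2 levels were most like those of a member over the 9 libraries were sought among all tested genes, and their r is a description only, since they are the highest of many. For Igf2 these were Mpp6 (r = 0.99), Sod3 (0.99), which encodes extracellular superoxide dismutase, and Fibin (0.99). Grb10 was nearest to Antxr1 (r = 0.99), which encodes a collagen-binding receptor, Hk2 (0.99) and Plp2 (0.98). H19 was nearest to Krt80 (r = 0.99), Fermt3 (0.98) and Tcea3 (0.98), each at under 5 cpm on average. For Cdkn1c they were Crybg3 (r = 0.99), Gja3 (0.98) and again Mpp6 (0.98). Snrpn was nearest to the calcium channel subunit Cacna1c (r = 0.96), the synaptotagmin Syt7 (0.95) and Morc2a (0.95). Peg3 was nearest to Sat2 (r = 0.96), Mia3 (0.96) and Tmub1 (0.95), Mest to Gid4 (0.98), Cldn1 (0.97) and Wdr82 (0.97), and Plagl1 to Ptgr2 (0.97), Gas2 (0.97) and Padi2 (0.96). Dlk1 had looser neighbours, Utrn (r = 0.92), Mettl6 (0.92) and Tspo (0.88). Meg3 was nearest to Trmt13 (r = 0.91), Mirg (0.89) and Col24a1 (0.87), of which Mirg is a noncoding RNA of the same imprinted cluster on chromosome 12.

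In that cluster the known paternally and maternally expressed genes diverged in WT library 2. Beside the members Dlk1 and Meg3, it holds Rtl1 and Dio3, known to be paternally expressed, and Rian and Mirg, noncoding RNAs known to be maternally expressed. In WT library 2 Meg3 was 2.24 times, Mirg 1.80 times and Rian 1.75 times the median of the other 8 libraries, each above all 8. Dlk1 was 0.360 times and Rtl1 0.173 times that median, each below all 8. Rian had 42126 counts in WT library 2 against 18940 to 26752 in the others, and Rtl1 10 counts against 17 to 289. Dio3 had only 5 to 13 counts in a library. Of the other members, Cdkn1c, at 0.696 times the median, was also below all 8 libraries, and the remaining 7, at 0.706 to 1.02 times, were within their range. Skeletal muscle markers, which like Rtl1 were highest in mutant library 2, were at 109 cpm in WT library 2 and at 60.9 cpm in Isl1Cre/+ library 3, the next lowest for Rtl1. Mesenchyme markers in WT library 2 were at 3476 cpm, and in mutant library 1, with fewer at 3100 cpm, Dlk1 was at 115 cpm against 49.7 in WT library 2. These genes were set side by side after their values were seen, a single library carries the pattern, and a cause was not tested.

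**Figure D5:**
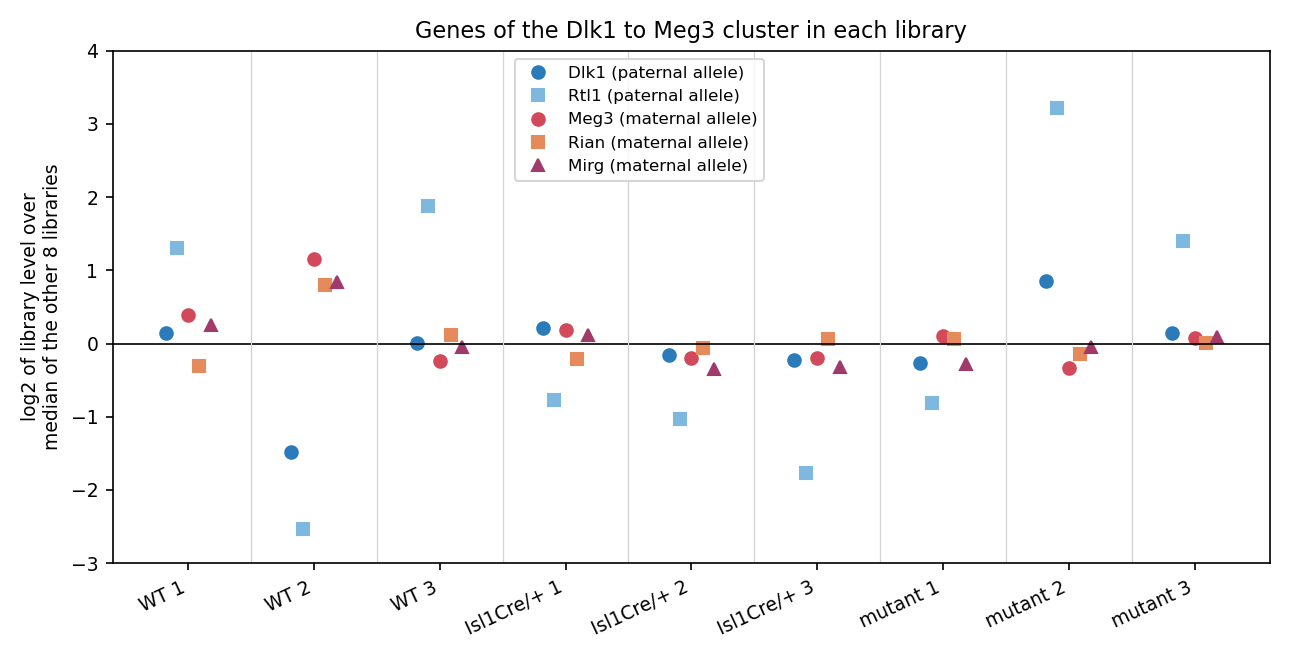
Log2 of the level in each library over the median of the other 8, for 5 genes of the chromosome 12 cluster. Alleles in the legend are background knowledge and were not measured. In WT library 2 Meg3, Rian and Mirg lie above 0 and Dlk1 and Rtl1 below it, and Rtl1 is highest in mutant library 2.

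Of 43 further imprinted genes listed, 34 were tested, and 2 met the criterion in a comparison: 1 between mutant and Isl1Cre/+, where 1.67% of all tested genes did, and 1 between Isl1Cre/+ and WT, where 1.4% did. Rtl1 was higher in the mutant than in Isl1Cre/+ by 2.44 ± 0.78 (log2, SE; edgeR adjusted p = 0.9997), with 31, 289 and 76 counts against 35, 28 and 17, so that the genotypes overlap. Without mutant library 2 its difference was 1.19, and without Isl1Cre/+ library 3 or with limma voom (1.91) it no longer met the criterion. Skeletal muscle markers moved with it, at 122.9 to 2006 cpm in the mutant and 60.9 to 145 cpm in Isl1Cre/+, and their part was not tested. Mirg fell by 0.54 in Isl1Cre/+ relative to WT (edgeR adjusted p = 0.9999), and by 0.25 without WT library 2, when it did not meet the criterion. Without Isl1Cre/+ library 2 or 3 the call was lost as well, at -0.47 and -0.49, as it was with library size only (-0.51), with limma voom (-0.50) and when 1.5-fold was required. Between mutant and WT none of the 20 paternally expressed, 12 maternally expressed and 2 mixed genes tested were called, and their medians were -0.02, -0.05 and 0.02.

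None of the 5 most abundant genes of either list met the criterion in a comparison. Among paternally expressed genes, Nnat, a small proteolipid of neurons and endocrine cells, was at 324 to 856 cpm over the libraries, highest in WT library 1, and Ndn, a neuronal MAGE family protein, at 323 to 489. Peg13 was at 329 to 406 cpm, Nap1l5 at 142 to 193 and Zrsr1 at 84.9 to 122. Among maternally expressed genes, Rian was at 713 to 1491 cpm, Ube3a, a ubiquitin ligase, at 155 to 254, H13 at 124 to 154, Igf2r, which clears IGF2, at 88.8 to 125, and Copg2, which overlaps Mest on the opposite strand over 912 exonic bases of Mest, at 79.1 to 100.1.

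In the insulin-like growth factor axis, 17 of 20 listed genes were tested and 1 met the criterion, between mutant and Isl1Cre/+, where 1.67% of all tested genes did. Pappa, a protease that frees IGF by cutting its binding protein, was at 46.0, 43.7 and 40.6 cpm in the mutant, 33.2, 34.2 and 36.4 in Isl1Cre/+, and 32.7, 35.2 and 41.6 in WT. The mutant libraries lay above all Isl1Cre/+ libraries and overlapped those of WT. Its log2 difference between mutant and Isl1Cre/+ was 0.33 ± 0.07 (SE; edgeR adjusted p = 0.9997), and it met the criterion in the 14 refits of this comparison (other scalings, filters, tools and libraries left out), with 0.28 to 0.38, but not when 1.5-fold was required. Between mutant and WT the difference was 0.25 ± 0.11, which did not meet the criterion (edgeR adjusted p = 0.9999). The most abundant genes of the axis were the binding proteins Igfbp5, at 222 to 400.5 cpm over the libraries, and Igfbp4, at 78.7 to 146, and the receptor Igf2r given above, with Igf1, the other growth factor ligand, at 68.5 to 101, and the adaptor Irs2, at 67.7 to 81.5. Igfbp5 and Igfbp4 were highest in mutant library 2, as Igf2 was, and neither met the criterion in a comparison.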

How the data were processed

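The authors made the deposited counts from poly(A) RNA of E18.5 DRGs: libraries carried unique molecular identifiers, single-end reads were aligned to mm10 with STAR 2.7.10, duplicates were removed and reads were counted per gene with HTSeq 0.6. The strand option and annotation release of the counting are not given in the sources used here. The table's 18 columns of the authors' own comparisons (fold changes, expression means, test statistics, p-values) were not used. Genes and lists were chosen with earlier results of these data known. Named are all 10 members, genes of 2 control checks (Meis2, Isl1), and of other imprinted and IGF genes those meeting the criterion or the 5 most abundant per list, with the 3 nearest genes of each member and leading markers. Dio3 and Snurf, outside this rule, were named after values were seen.

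Counts were scaled by TMM, with 0.5 cpm added before log2, and each pair of genotypes was fitted alone by edgeR 4.0.16 in R 4.3.3 (quasi-likelihood, two-sided, Benjamini-Hochberg over 13200 genes). The SE is the log2 fold change over the root of its F statistic. Permutations used scipy 1.17.1. Positions come from GENCODE on GRCm38, in which 54855 identifiers of the table matched. Libraries held 23854607 to 29103444 counts, and floors and intervals were not needed at the members' depth. The labels give no batch. Alternatives were DESeq2 1.42.0 (size factors, Wald test), limma voom 3.58.1, library size only, other filters and folds, all genotypes in 1 fit, a replicate block and each library left out. Scripts were tested on simulated data.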

Additional observations from a re-analysis of the deposited data

How the results depend on the processing

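With 3 libraries per genotype, leaving out a single library turned many differences, the largest of them 0.431 (Cdkn1c, mutant against Isl1Cre/+). Of 430 recomputed log2 fold changes of the 10 genes, 377 kept their direction and side of the criterion, 41 turned and 12 came to meet it. The number of genes meeting the criterion was 0 of 10 in each comparison. It was 1 in each comparison with no filter on low counts, and 1 for mutant against WT and 1 for Isl1Cre/+ against WT with DESeq2's Wald test (Meg3 against WT in all of these, H19 for mutant against Isl1Cre/+). With each library left out it was 0 to 1 for mutant against WT (1 without WT library 3, Meg3) and 0 to 2 in the other comparisons. With the replicate block it was 0 in each comparison, and over all genes the calls went from 42 to 31, 221 to 177 and 185 to 236. Correlations of the deviations of same-numbered libraries were mixed (-0.569 to 0.385, all 3 above 0.1 for number 3 only), so the numbers were not taken to pair libraries. No alternative gave any of the 10 an adjusted p under 0.05. Over all genes the calls ranged from 7 to 408, 134 to 1028 and 102 to 845. The upper ends came with no filter on low counts, where 32546, 32358 and 32526 genes were tested. DESeq2's Wald test called 37, 236 and 199 of 13200 genes, and mutant against WT without WT library 3 called 67. Causes were not tested.

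Mutant against WT, the log2 difference of Igf2 turned to -0.0148 with limma voom, -0.0306 with the replicate block and -0.3023 without WT library 1 and mutant library 2, an alternative added after seeing the data. In the latter Cdkn1c was at -0.0462, Grb10 at -0.1045, Mest at -0.0889, Peg3 at 0.0338 and Snrpn at 0.0480. Peg3 was at 0.0045 with no filter on low counts, and Snrpn at 0.0024 with DESeq2's size factors, 0.0043 with library size only, 0.0144 with no filter and 0.0024 with the Wald test. With each library left out, mutant against WT ranged from -0.3355 to 0.5115 for H19, -0.5221 to 0.4357 for Igf2, -0.0753 to 0.0304 for Peg3, -0.3250 to 0.4705 for Cdkn1c, -0.0406 to 0.0443 for Snrpn and -0.1098 to 0.4062 for Grb10. Mutant against Isl1Cre/+ ranged from -0.2997 to 0.6748 for Igf2, -0.0703 to 0.1006 for Meg3, -0.0139 to 0.5195 for Dlk1, -0.0842 to 0.6439 for Cdkn1c, -0.1687 to 0.3593 for Grb10 and -0.0732 to 0.1658 for Mest. Isl1Cre/+ against WT ranged from -0.0647 to 0.4982 for Dlk1, -0.4854 to 0.0270 for Cdkn1c, -0.0481 to 0.1229 for Grb10, -0.0261 to 0.3197 for Mest and -0.0517 to 0.0722 for Plagl1.

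The 1 relation of 30 with marker levels became 4 with DESeq2's size factors, 4 with the mean of log2 cpm over the markers, and 1 to 4 with each library left out. Grb10 with mesenchyme was past the threshold in each of these.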
